A study of Homo sapiens with 14 samples.

Results

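The head of the small ribosomal subunit was examined as nt 1199 to 1599 of human 18S rRNA, which make up most of its 3′ major domain. Members were the nucleotides in this range with a score for all 3 reagents, and every position qualified, so 401 of 1833 scored 18S nucleotides (21.9%) were included. They were set beside the other 1432 scored nucleotides of 18S. RNA of HEK293 cells, a human embryonic kidney line that carries adenovirus 5 DNA, had been acylated in living cells and read out as stops of reverse transcription. The groups used here were AcIN3 at 200 mM, AcIm (acetylimidazole) at 100 mM and NAIN3 (the azide-bearing nicotinic acid imidazolide NAI-N3) at 100 mM, each applied for 10 min and each with 2 replicates of gel-purified ribosomal RNA. AcIN3 is known here by its code name only. The 10% DMSO libraries and the polyadenylated RNA libraries that complete the 14 samples were not analysed here. All groups come from 1 cell line, and the reads of the many rRNA gene copies are pooled in 1 profile.

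Imidazole-activated acyl donors react with the ribose 2′-hydroxyl, and they do so faster where the nucleotide is flexible and can be reached. A high score is therefore usually read as an unpaired or mobile nucleotide, and a low one as a paired, buried or protected nucleotide. The head folds as a unit of its own, joined to the body by a single helical neck, and it swivels when tRNA and mRNA move through the ribosome. Its side that faces the large subunit contacts the tRNAs, its beak side borders the mRNA entry channel together with protein uS3, and its solvent side carries the scaffold protein RACK1.

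The quantity reported is the R-score, a value from 0 to 1 per nucleotide that was deposited as the mean over replicates. No replicate values, read counts or depth were analysed here. No difference below could therefore be tested against the spread between replicates, and no p-value is given. Because the reagents differ in score range, and AcIN3 also in dose, scores were turned into percentile ranks within the scored 18S profile of each reagent (0 lowest, 100 highest). The 18S profile has 1869 positions, the length of all 5 18S loci named RNA18SN1 to RNA18SN5 in the annotation of GRCh38.p14. One of them, RNA18SN1, spans 8436876 to 8438744 of chromosome 21 and encodes a structural rRNA with no coding region. No 18S sequence was used here, so bases, pairing and motifs are not described.

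As a whole the head was neither a reactive nor an unreactive region of 18S. With AcIN3 the median R-score was 0.1195 in the head and 0.1165 in the other 18S nucleotides. With AcIm the medians were 0.0805 in the head and 0.076 elsewhere, and with NAIN3 they were 0.0225 in the head and 0.0215 elsewhere. The median percentile rank of head nucleotides was 50.6 for AcIN3, 51.7 for AcIm and 50.6 for NAIN3, against 49.7, 49.4 and 49.6 in the other nucleotides. The middle of the distribution was thus within about 2 percentile points of the rest in every reagent.

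Highly reactive nucleotides were taken as the 10% with the highest scores over all of 18S, which is 183 nucleotides (9.98%) for each reagent. In the head 39 of 401 nucleotides (9.73%) reached this class with AcIN3, 35 (8.73%) with AcIm and 33 (8.23%) with NAIN3. Outside the head the shares were 10.1%, 10.3% and 10.5%. These shares lie near the background of 9.98%. The class began at a score of 0.4395 for AcIN3, 0.3595 for AcIm and 0.1385 for NAIN3. Scores listed at exactly 0 were fewer in the head than elsewhere with NAIN3, at 21 nucleotides (5.24%) against 138 (9.64%). With AcIN3 they numbered 10 (2.49%) against 50 (3.49%), and with AcIm 2 (0.499%) against 12 (0.838%).

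**Figure D1:**
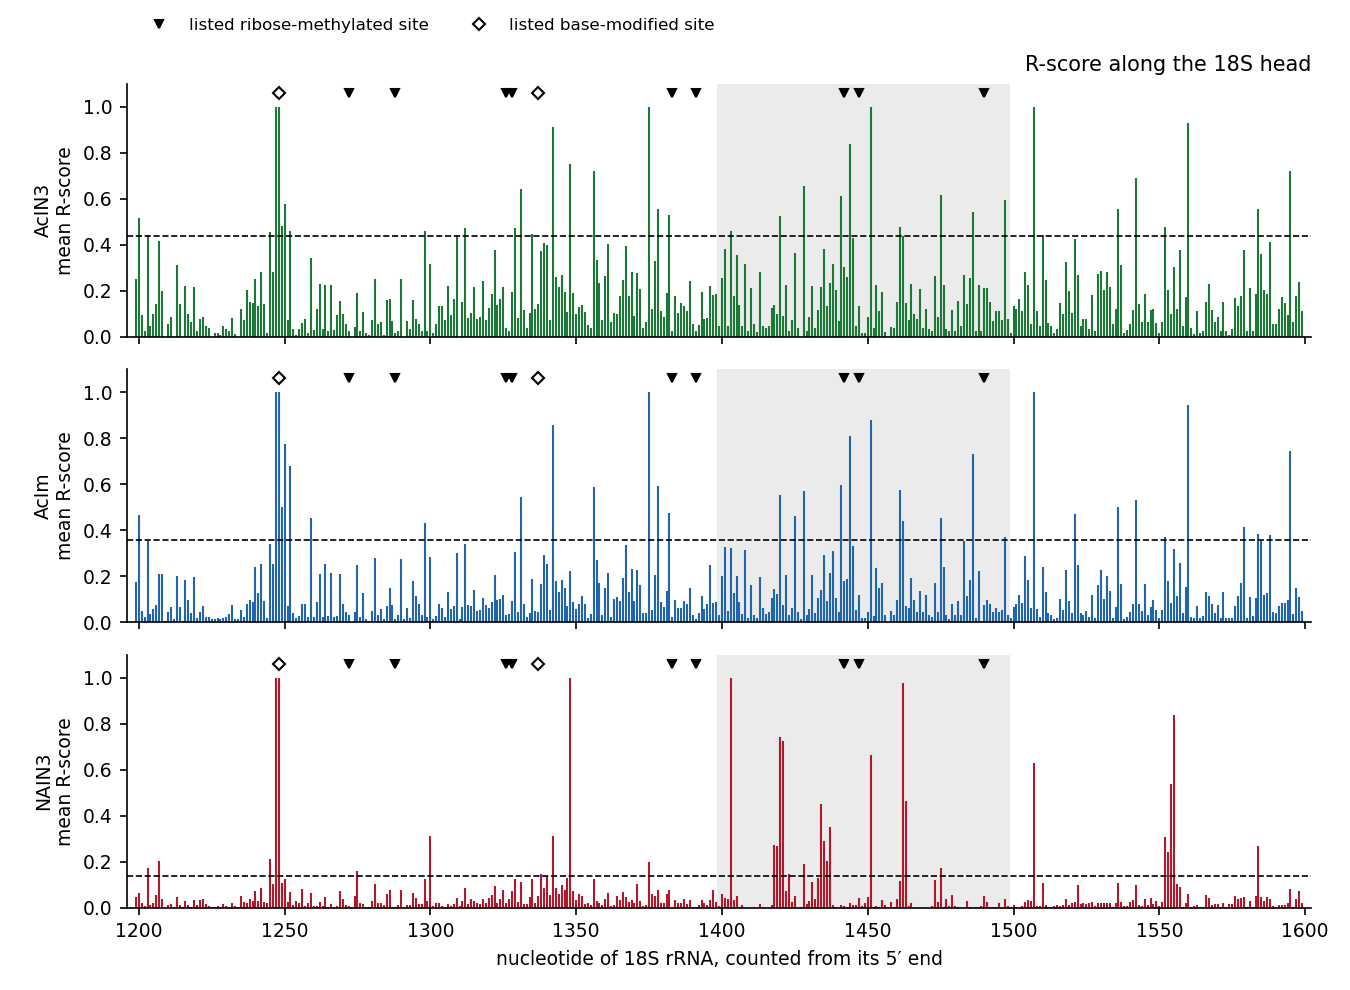
Mean R-score (0 to 1) of each head nucleotide by its position in 18S rRNA, with AcIN3, AcIm and NAIN3 from top to bottom. Dashed lines mark the start of each reagent's top 10%, triangles and diamonds the listed modified sites, and the grey band nt 1399 to 1498, where the NAIN3 profile departs most from the other two.

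Most highly reactive nucleotides of AcIN3 and AcIm were single positions, and with NAIN3 the share was smaller. Single means here that neither direct neighbour was in the class, and such a neighbour could still rank high. Whether the shares differ from those of random placing was not tested. With AcIN3 33 of the 39 (84.6%) had no neighbour in the class, and with AcIm 29 of the 35 (82.9%), against 66.7% and 69.6% of such nucleotides outside the head. With NAIN3 17 of the 33 (51.5%) stood alone, against 44.7% outside it. Counted over the reagents, 12 head nucleotides (2.99%) were highly reactive with all 3, another 22 (5.49%) with 2 of them and 27 (6.73%) with 1. The remaining 340 (84.8%) were so with none. Outside the head the shares were 3.77% with all 3, 4.96% with 2, 9.64% with 1 and 81.6% with none.

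The largest group of highly reactive nucleotides in the head was nt 1245 to 1252, around the listed hypermodified nucleotide 1248. This nucleotide, m1acp3Ψ, lies at the tip of helix 31, next to the P-site tRNA, and is known as a stop to reverse transcription. Nt 1247 and nt 1248 scored 1 with AcIN3, AcIm and NAIN3, and they were the only head nucleotides at the upper limit in all 3 reagents. Outside the head 5 nucleotides were at 1 in all 3. Of the 8 nucleotides in the group, 6 were highly reactive with at least 2 reagents. Nt 1250 scored 0.576 with AcIN3, 0.7745 with AcIm and 0.1255 with NAIN3. Nt 1252 scored 0.461 with AcIN3, 0.6775 with AcIm and 0.0705 with NAIN3. Nt 1251, between them, scored 0.074 with AcIN3, 0.07 with AcIm and 0.0245 with NAIN3 (percentile ranks 35.0, 46.9 and 52.6), so the group was not continuous. Nt 1244, a listed pseudouridine just before the group, ranked below 50 in all reagents, at 0.0165 with AcIN3, 0.017 with AcIm and 0.0195 with NAIN3. The DMSO profile was not analysed here, so what the natural stop at nt 1248 adds to these scores was not tested.

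The other nucleotides highly reactive with all 3 reagents were spread over the remaining head. The highest by mean rank were nt 1507, with 1 for AcIN3, 1 for AcIm and 0.631 for NAIN3, and nt 1451, with 1, 0.8795 and 0.665 for the same reagents. Nt 1342 scored 0.9105 with AcIN3, 0.8595 with AcIm and 0.313 with NAIN3. Nt 1375 scored 1 with both AcIN3 and AcIm and 0.2005 with NAIN3, which is a much lower score but still within NAIN3's top class. Nt 1420, nt 1428, nt 1462 and nt 1475 followed, with mean ranks between 93.7 and 95.9, and the last were nt 1584 and nt 1552. Groups other than the one at nt 1245 to 1252 were small. Nt 1375, 1378 and 1382 formed a group of 3, and pairs lay at nt 1200 and 1203, nt 1441 and 1444, and nt 1461 and 1462. The other 19 nucleotides highly reactive with at least 2 reagents lay further apart, since members of a group were allowed at most 3 nt between them.

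Outside that common set several of the highest AcIN3 and AcIm scores fell on the same nucleotides, with exceptions. Nt 1560 scored 0.929 with AcIN3 and 0.9455 with AcIm, nt 1444 scored 0.837 and 0.81, and nt 1595 scored 0.7185 and 0.743. NAIN3 gave 0.059, 0.0225 and 0.0815 at these 3 positions. Nt 1356 scored 0.7195 with AcIN3, 0.587 with AcIm and 0.127 with NAIN3. Nt 1348 was among the 10 highest of AcIN3 (0.75) and outside the top class of AcIm (0.223), and nt 1250, given above, was among the 10 highest of AcIm only. NAIN3's own highest scores outside the set were at nt 1348 and nt 1403 (both 1), nt 1555 (0.837) and nt 1421 (0.7245), and nt 1462 of the set scored 0.975. At nt 1403 the AcIN3 score was 0.458 and the AcIm score 0.3235.

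Closed stretches were short. A nucleotide was counted as low where it ranked below 50 in all 3 reagents, which held for 135 head nucleotides (33.7%) and for 489 of the others (34.1%). The longest unbroken run of low nucleotides in the head was nt 1223 to 1231, with 9 nt, against 11 nt outside the head. In this run no score exceeded 0.049 with AcIN3, 0.037 with AcIm or 0.018 with NAIN3. The next was nt 1561 to 1565 with 5 nt, directly after the very reactive nt 1560. Nt 1209 to 1212, nt 1493 to 1496 and nt 1512 to 1515 followed with 4 nt each. The 81 low runs of the head otherwise had 3 nt or fewer. Nt 1457 was the only head nucleotide listed at 0 in all reagents. A highly reactive nucleotide lay close to each border of the region, nt 1200 inside the 5′ border (0.518 with AcIN3, 0.4645 with AcIm and 0.0645 with NAIN3, where it was not in the top class) and nt 1600 outside the 3′ border. With AcIN3, AcIm and NAIN3, nt 1198 just outside scored 0.173, 0.105 and 0.0495 and nt 1199 just inside 0.25, 0.174 and 0.047, whereas nt 1599 just inside scored 0.114, 0.0505 and 0.023 and nt 1600 0.903, 0.7955 and 0.342.

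Along the head reactivity rose and fell by stretches of 25 nt. The median score of the 16 stretches ranged from 0.064 to 0.2055 with AcIN3, from 0.0545 to 0.118 with AcIm and from 0.0075 to 0.077 with NAIN3. The 56 stretches outside the head spanned 0.0235 to 0.29, 0.028 to 0.1695 and 0 to 0.061. The first 4 stretches of the head, nt 1199 to 1298, included the lowest 4 of AcIN3 and 3 of the lowest 4 of AcIm. Nt 1274 to 1298 had medians of 0.064 with AcIN3 and 0.058 with AcIm, and nt 1224 to 1248 had 0.083 and 0.0545, although this last stretch ends in the 2 nucleotides that scored 1. Nt 1249 to 1273 was also low with AcIN3 (0.074), and nt 1199 to 1223 with AcIm (0.065).

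By median score, nt 1324 to 1348 stood highest or next to highest with each reagent. It holds the listed N4-acetylcytidine 1337 of helix 34, a helix beside the A site and the mRNA entry. Its median was the highest of the head with AcIm (0.118) and NAIN3 (0.077) and the next to highest with AcIN3 (0.195). The NAIN3 median was also above that of every stretch outside the head, of which the highest was 0.061. The mean percentile rank was 64.3 with AcIN3, 59.02 with AcIm and 75.3 with NAIN3. By mean rank it led with AcIN3 and NAIN3, whereas with AcIm nt 1424 to 1448 (60.7) and nt 1349 to 1373 (59.06) were above it. Nt 1424 to 1448 had the highest AcIN3 median (0.2055) and the next highest AcIm median (0.117), while its NAIN3 median was 0.0225. Nt 1349 to 1373 came after these with AcIN3 (0.176) and AcIm (0.1095) and was next to highest with NAIN3 (0.0345), followed by nt 1574 to 1599 (0.0305). The lowest NAIN3 medians were 0.0075 for nt 1474 to 1498, 0.009 for nt 1449 to 1473 and 0.011 for nt 1499 to 1523, none of which was among the 4 lowest of AcIN3 or AcIm.

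**Figure D2:**
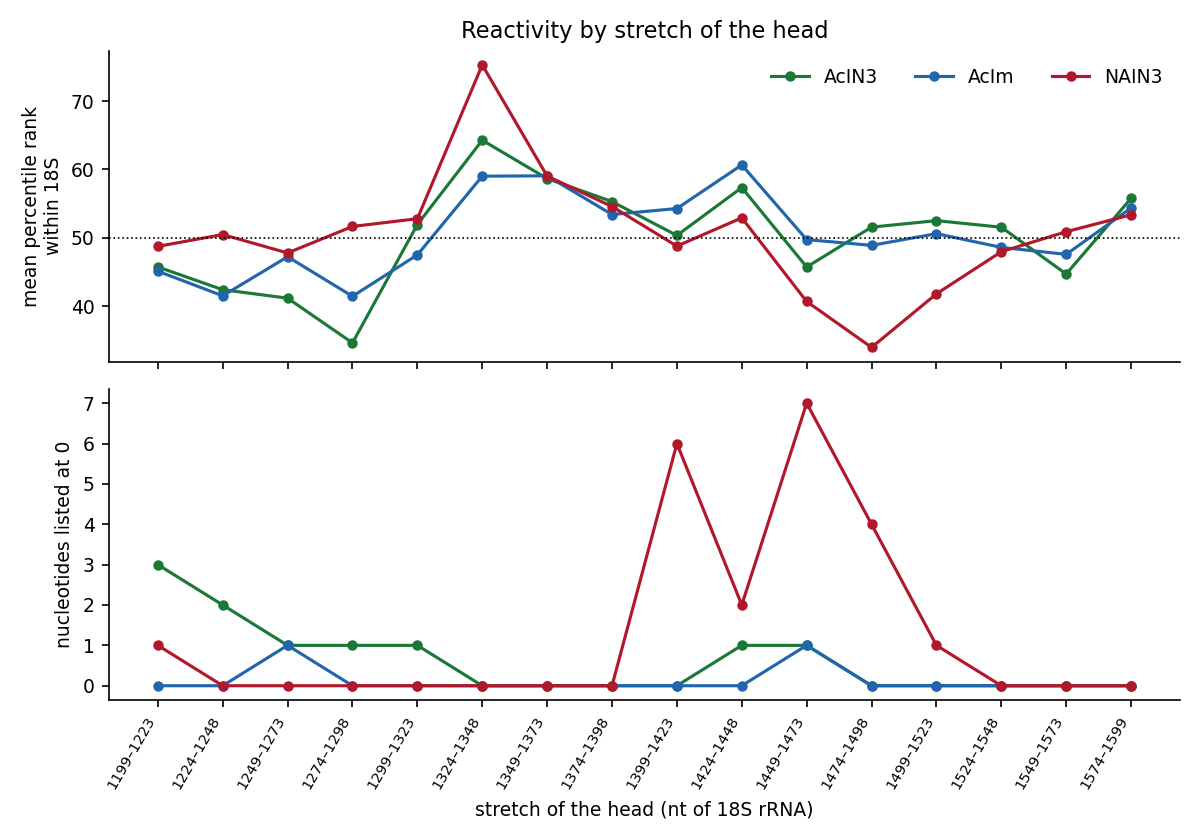
Mean percentile rank within 18S (upper panel) and number of nucleotides listed at 0 (lower panel) in 16 consecutive stretches of the head, with AcIN3 in green, AcIm in blue and NAIN3 in red. NAIN3 peaks at nt 1324 to 1348 with a mean rank of 75.3 and is lowest at nt 1474 to 1498 with 33.97. Of its 21 scores of 0, 19 lie in nt 1399 to 1498, a part picked by these scores.

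Ribose methylation replaces the hydroxyl that these reagents acylate, and 9 nucleotides of the head are listed as ribose-methylated. Their median percentile rank was 20.02 with AcIN3, 22.9 with AcIm and 26.9 with NAIN3, against 50.6, 51.7 and 50.6 over all head nucleotides. None of the 9 was highly reactive with any reagent, which also held for 84.8% of all head nucleotides, so this count is near the background. Am1383, Cm1391, Um1288 and Cm1272 were low throughout, with AcIN3 scores of 0.0235, 0.0235, 0.0165 and 0.0235. AcIm scores at these sites were 0.0245, 0.0125, 0.0125 and 0.0325, and NAIN3 scores 0.003, 0.003, 0.005 and 0.0075. Am1383 sits directly 3′ of nt 1382, which scored 0.528 with AcIN3, 0.4745 with AcIm and 0.0785 with NAIN3, so the drop there is a single step. Um1326 scored 0.04 with AcIN3, 0.0325 with AcIm and 0.0225 with NAIN3.

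The other 4 sites were not uniformly low. Um1442 ranked 81.1 with AcIN3 and 75.1 with AcIm and 26.9 with NAIN3, with scores of 0.303, 0.1795 and 0.0085, and lies between the reactive nt 1441 and nt 1444. Gm1328 ranked 68.3, 55.8 and 79.8 with AcIN3, AcIm and NAIN3, Gm1490 ranked 70.5, 49.9 and 73.4, and Gm1447 ranked 54.0, 63.5 and 68.0. By median, the direct neighbours were low as well, although single ones ranked as high as 95.8 with AcIN3 (nt 1441). At the nucleotides directly 5′ of the 9 sites the median rank was 29.1 with AcIN3, 37.2 with AcIm and 37.0 with NAIN3, and directly 3′ it was 26.0, 29.2 and 38.6. At 2 nt on the 5′ side it was 62.3, 68.0 and 60.7, and at 2 nt on the 3′ side 59.8, 51.7 and 54.8. A site scored below both direct neighbours in 3 of 9 cases with AcIN3, 5 of 9 with AcIm and 4 of 9 with NAIN3, where 33.1%, 31.1% and 30.3% of all head nucleotides did so. The listed positions come from general knowledge of human 18S rRNA and were not matched to a sequence.

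**Figure D3:**
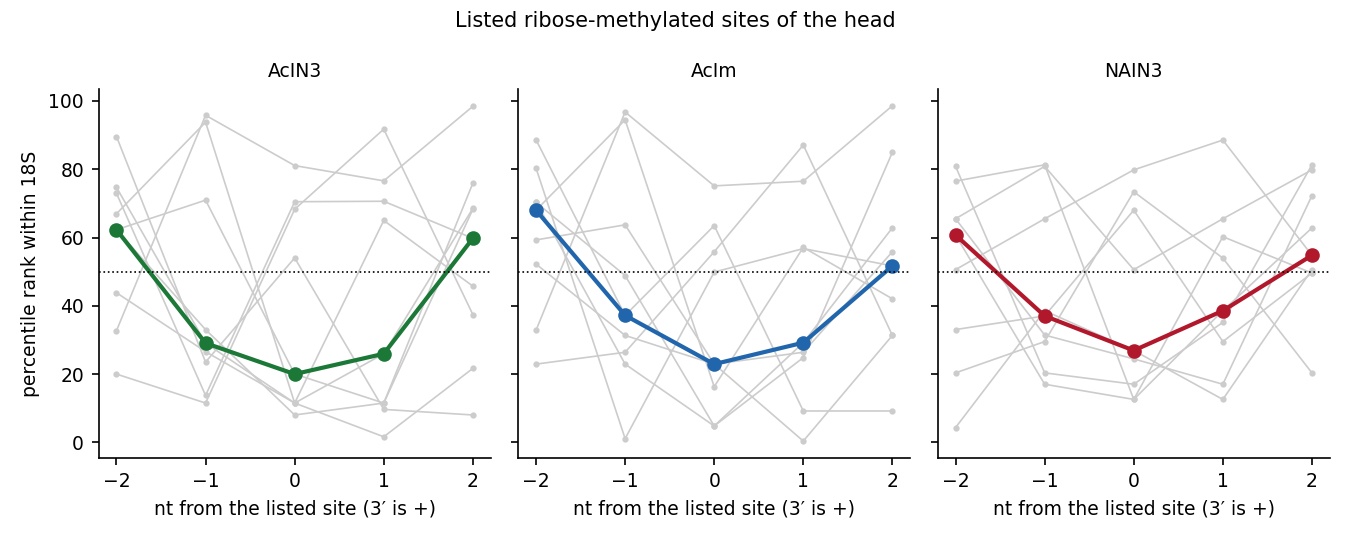
Percentile rank within 18S at the 9 listed ribose-methylated sites of the head (position 0) and at 2 nt on each side, with AcIN3, AcIm and NAIN3 from left to right. Grey lines are single sites and coloured lines their medians, which fall to 20.02, 22.9 and 26.9 at the site.

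The other listed modifications gave no common level. N4-acetylcytidine 1337 scored 0.141 with AcIN3, 0.046 with AcIm and 0.0535 with NAIN3, at ranks of 57.0, 32.8 and 73.9. The 6 listed pseudouridines, whose ribose is free, had median ranks of 52.9 with AcIN3, 52.8 with AcIm and 58.9 with NAIN3. They ranged from nt 1244 (ranks 8.05, 9.22 and 46.8) to nt 1445 (89.6, 88.6 and 33.1) and nt 1367 (87.9, 88.8 and 71.1). Pseudouridine 1347 precedes nt 1348, where NAIN3 reached 1, and scored 0.1065 with AcIN3, 0.07 with AcIm and 0.1305 with NAIN3.

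AcIN3 and AcIm, applied at different doses, gave nearly the same order of head nucleotides, and NAIN3 gave a more distant one. Across the 401 nucleotides Spearman's rho was 0.957 for AcIN3 and AcIm, against 0.947 outside the head. For AcIm and NAIN3, which share dose and time, it was 0.644 in the head and 0.562 outside it. For AcIN3 and NAIN3 it was 0.649 in the head and 0.564 outside it. AcIN3 and AcIm shared 30 highly reactive head nucleotides, which is 76.9% of AcIN3's and 85.7% of AcIm's. AcIm and NAIN3 shared 12, which is 34.3% of AcIm's and 36.4% of NAIN3's, and AcIN3 and NAIN3 shared 16, which is 41.0% of AcIN3's and 48.5% of NAIN3's. Outside the head these shares were 79.9% and 77.7% for AcIN3 and AcIm and 39.9% and 39.3% for AcIm and NAIN3. For AcIN3 and NAIN3 they were 41.0% and 39.3%. The shares for AcIm and NAIN3 were thus lower in the head than outside it, although their rho was higher there. Nucleotides are not independent replicates, and all 3 profiles may rest on the same DMSO libraries, so these are descriptions.

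The relation to NAIN3 was weaker than that between AcIN3 and AcIm in each of the 16 stretches, and weakest in 1 part of it. Over nt 1399 to 1498, rho between AcIm and NAIN3 was 0.393 across 100 nucleotides, against 0.774 across the other 301 head nucleotides. Between AcIN3 and NAIN3 it was 0.400 in that part and 0.773 in the rest of the head, whereas between AcIN3 and AcIm it was 0.962 and 0.954. The same 100 nucleotides held 19 of the 21 NAIN3 scores of 0 in the head (19%, against 0.664% in the rest of it), among them unbroken runs at nt 1466 to 1471 and nt 1408 to 1410. The high count of 0 follows from the rule by which this part was picked, given below. The 100 nucleotides also held 15 of NAIN3's 33 highly reactive nucleotides (15%, against 5.98%). With AcIm the 100 nucleotides had 1 score of 0 and 11 highly reactive nucleotides, and with AcIN3 2 and 11.

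This part was picked after its values had been seen, as the stretches with 2 or more NAIN3 scores of 0, so the contrast has no test. Leaving out the nucleotides with a NAIN3 score of 0 gave a rho between AcIm and NAIN3 of 0.434 over the 81 that remained in it and 0.780 over 299 in the rest of the head. By 25-nt stretch, the 4 with 2 or more such zeros had rho between 0.0340 and 0.504, lowest at nt 1474 to 1498, and the other 12 had rho between 0.580 and 0.926. Outside the head 22 of 56 stretches had 2 or more NAIN3 zeros, with a median rho of 0.440 (-0.293 to 0.757). The other 34 had a median of 0.778 (0.307 to 0.940), so the 2 ranges overlapped there. By median, the pairing of NAIN3 zeros with a lower rho was found beyond the head too. Depth at these nucleotides is unknown, and its part was not tested.

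**Figure D4:**
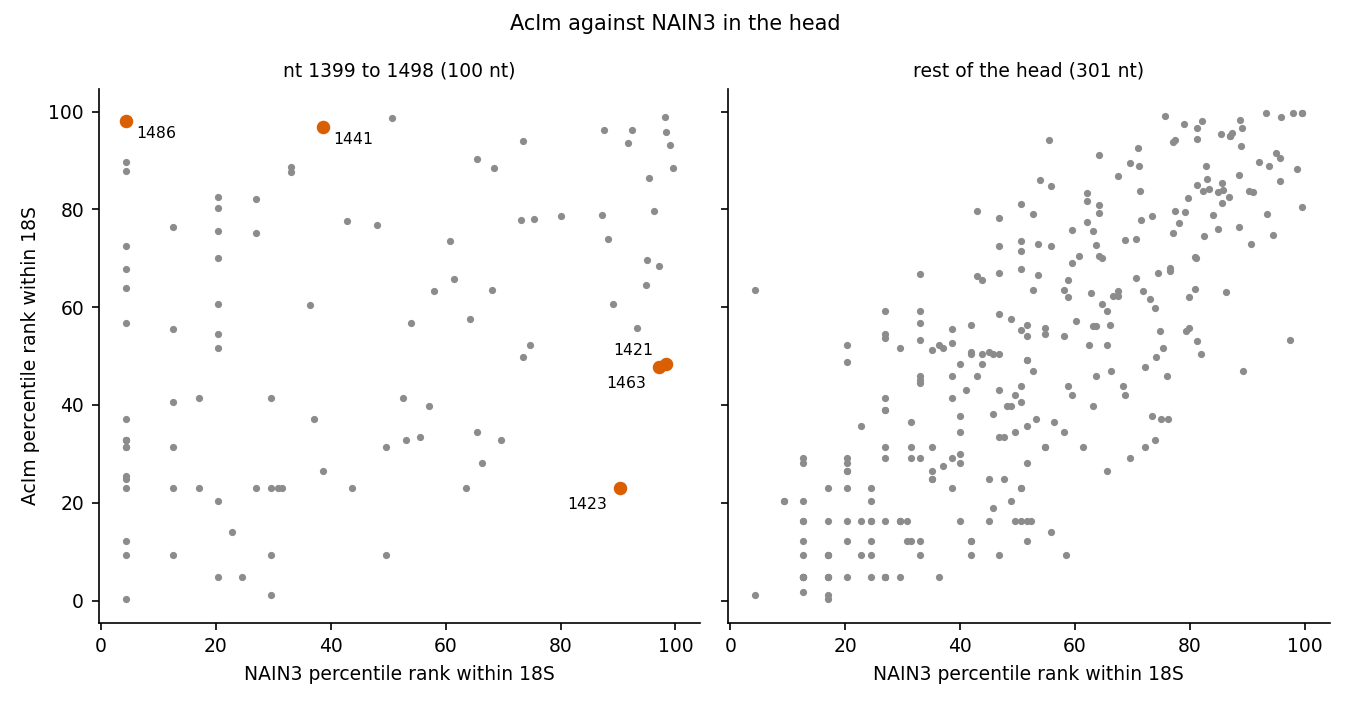
Percentile rank of each head nucleotide with AcIm (vertical) and NAIN3 (horizontal), in nt 1399 to 1498 (left, 100 nt, rho 0.393) and in the rest of the head (right, 301 nt, rho 0.774). Orange points with position numbers are highly reactive with one reagent and rank below 50 with the other, and all 5 lie in the left panel. The part shown in the left panel was picked by its NAIN3 scores of 0.

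Nucleotides that were highly reactive with one reagent and ranked below 50 with the other were few in the head. For AcIm over NAIN3 there were 2 of 401 (0.499%), against 1.31% of all scored nucleotides. As a share of AcIm's highly reactive nucleotides they were 5.71% in the head and 14.9% outside it (22 nucleotides), a difference that could not be tested. Both lay in nt 1399 to 1498. Nt 1486 scored 0.73 with AcIm and 0 with NAIN3, and nt 1441 scored 0.596 with AcIm and 0.014 with NAIN3. AcIN3 was high at both, with 0.5415 at nt 1486 and 0.6135 at nt 1441, and these were also its only 2 over NAIN3 in the head (0.499%, with 1.31% over all scored nucleotides).

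The reverse set was of similar size. NAIN3 was high and AcIm low at 3 nucleotides (0.748%, with 1.2% over all scored nucleotides). They were nt 1423 (0.0325 with AcIm and 0.145 with NAIN3), nt 1421 (0.074 and 0.7245) and nt 1463 (0.0725 and 0.4635). Against AcIN3 there were 4, nt 1423, nt 1421, nt 1554 and nt 1419 (0.998%, with 1.36% over all). Nt 1554 scored 0.0995 with AcIN3 and 0.538 with NAIN3, and nt 1419 scored 0.1015 and 0.2665. Between AcIN3 and AcIm no nucleotide was opposed in either direction, in the head or elsewhere (0% over all). Of the 7 nucleotides opposed in any pair, 6 lay in nt 1399 to 1498, the exception being nt 1554.

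Means over 2 replicates still bound each replicate, if replicate scores lie between 0 and 1. For some pairs of means no overlap between the replicates is then possible. This takes each deposited mean to cover exactly the 2 replicates of its reagent. In this sense AcIm was above NAIN3 in every replicate at 10 head nucleotides (2.49%, with 2.45% over all scored nucleotides). These were nt 1250, 1252, 1342, 1375, 1378, 1441, 1444, 1486, 1560 and 1595. NAIN3 was above AcIm in every replicate at 5 (1.25%, with 1.04% over all), nt 1348, 1403, 1421, 1462 and 1555. For AcIN3 over NAIN3 the count was 11 (2.74%, with 3.44% over all) and for NAIN3 over AcIN3 it was 4 (0.998%, with 0.927% over all). AcIN3 exceeded AcIm in this way at 1 head nucleotide, nt 1348, the only one in 18S (0.0546%), and AcIm exceeded AcIN3 at none (0%). These shares are close to the background and do not set the head apart. The bound compares raw scores, and AcIm scored above NAIN3 at 90.3% of head nucleotides and 87.9% of the others. Nt 1342, 1375 and 1462 met it although they were highly reactive with all 3 reagents, so meeting it is not a difference in class. The bound can be met only by means above the middle of the scale, which 25 head nucleotides reached with AcIN3, 21 with AcIm and 11 with NAIN3, and it was met at nt 1486, nt 1441 and nt 1421 among those opposed between AcIm and NAIN3.

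NAIN3 scores resembled those of adjacent nucleotides more than AcIN3 and AcIm scores did. Between adjacent head nucleotides rho was 0.0879 with AcIN3, 0.0686 with AcIm and 0.384 with NAIN3, against 0.175, 0.190 and 0.488 outside the head. At a distance of 3 nt the values in the head were 0.187, 0.166 and 0.220. NAIN3's highly reactive nucleotides included 3 unbroken runs of 4. These were nt 1418 to 1421, then nt 1434 to 1437, and nt 1552 to 1555. In each of these AcIN3 and AcIm had at most 1 highly reactive nucleotide, nt 1420 in the run at nt 1418 to 1421 and nt 1552 in the run at nt 1552 to 1555, and none at nt 1434 to 1437. With AcIN3 and AcIm alike, the only run longer than 2 nt was nt 1247 to 1250. The AcIm score of a nucleotide had a rho of 0.0146 with the NAIN3 score 1 nt further 3′ and of 0.186 with that 1 nt further 5′, against 0.644 at the same nucleotide. Of the 21 highly reactive NAIN3 nucleotides of the head that were not so with AcIm, 3 (14.3%) lay directly 3′ of a highly reactive AcIm nucleotide and 1 (4.76%) directly 5′ of one, against 23.1% and 14.3% outside the head.

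**Figure D5:**
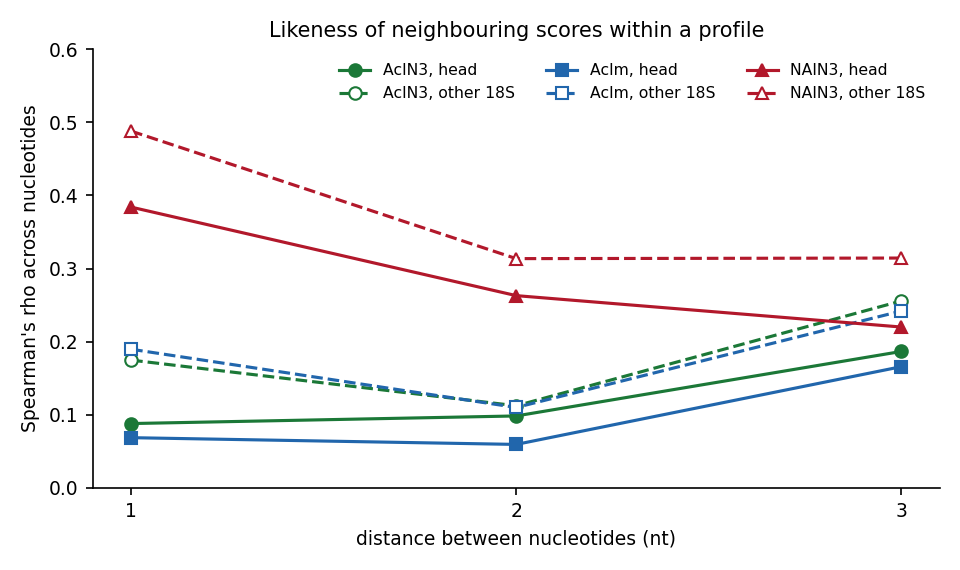
Spearman's rho between the scores of nucleotides 1, 2 or 3 nt apart within the profile of AcIN3, AcIm and NAIN3, in the head (solid lines) and in the other 18S nucleotides (dashed lines). At a distance of 1 nt NAIN3 reaches 0.384 in the head and 0.488 elsewhere, above both other reagents.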

How the data were processed

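The R-score per nucleotide was used as deposited, a score from 0 to 1 that the file name calls a mean. The headers name the reagents only. That each mean covers the 2 replicates of a reagent was inferred from the sample titles. The submitters' processing notes name Bowtie2 and GRCh38. The calculation of the score, the way DMSO entered it and any depth filter are points not given in the sources used here. Every head score lay on steps of 0.0005. A cap at 0 and 1 removes order at both ends, and averaging hides the spread between replicates, so no test, interval between replicates or paired fit was made. All other groups have no values here.

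Percentile ranks (ties averaged) and the top 10% (ties by position) were taken over all scored 18S nucleotides. Named nucleotides were the 10 highest per reagent, the 5 widest opposed per pair and direction, those high in all reagents, listed modified sites, and the leading runs, groups and 25-nt stretches. Members, lists and rules were chosen with earlier results of these data known. Base identity was planned and left out for want of a sequence. The code was tested on simulated data, where 20 of 20 planted opposed nucleotides among 1833 were recovered for AcIm over NAIN3. Apart from the planted nucleotides the simulated profiles were nearly identical, so this checks the code only. It does not show how well opposed nucleotides are found in the real profiles. The work used Python 3.11.15 with scipy 1.17.1, pandas 2.3.3 and numpy 2.4.6; figures used matplotlib 3.10.9. Other limits, bounds, measures and sets of nucleotides were tried as alternatives.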

Additional observations from a re-analysis of the deposited data

How the results depend on the processing

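Of 72 alternative values, 57 stayed within the tolerance set for their kind. This was the exact 95% binomial interval of a share or median rank, 0.1 for a correlation and 1.5 times for a count. Among the 57 were all 12 for the head's median rank and all 15 for the percent of highly reactive 18S nucleotides that lay in the head. In the main setting that percent was 21.3% with AcIN3, 19.1% with AcIm and 18.0% with NAIN3, where the head holds 21.9% of scored nucleotides. With the top 20%, AcIm shared 58.1% and AcIN3 59.7% of their highly reactive head nucleotides with NAIN3. The opposed counts were then 9 for AcIm over NAIN3, 6 for AcIN3 over NAIN3 and 7 for NAIN3 over AcIN3. A wider class cannot lower an opposed count. Below rank 25 in place of 50, each of the 4 sets against NAIN3 held 1. Of the opposed nucleotides, 1 for NAIN3 over AcIm and 1 for NAIN3 over AcIN3 also met the replicate bound. Pearson's r was 0.497 for AcIm and NAIN3 and 0.537 for AcIN3 and NAIN3, against 0.481 and 0.466 outside the head, and the cause was not tested. Leaving out nt 1399 to 1498, an alternative chosen after seeing the data, gave rho of 0.774 for AcIm and NAIN3 and 0.773 for AcIN3 and NAIN3. No paired analysis was possible because the deposited columns are means over the replicates. With no depth given, scores of 0 from poor coverage cannot be told apart from scores of 0 from unreactive nucleotides.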
